A study of Homo sapiens with 14 samples.

Results

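The mitochondrially encoded genes are the 37 genes whose symbol starts with MT-, 13 coding for proteins, 2 for ribosomal RNAs and 22 for transfer RNAs, out of 62749 human genes in the tables. They were followed across 14 RNA sequencing libraries of xenograft tissue grown in mice from UMUC3, a human bladder cancer line. The 4 groups were FASN knockdown cells pre-exposed to 10% cigarette smoke medium (CSM) before engraftment (n = 4), FASN knockdown cells kept in regular medium (n = 3), control cells pre-exposed to 10% CSM (n = 4) and control cells kept in regular medium (n = 3). Control cells are titled as carrying a control hairpin, FASN encodes fatty acid synthase, and the labels give neither the knockdown method nor the length of the exposure. All groups share the line, and the smoke medium was given to the cells and not, as far as the labels say, to the mice.

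Human mitochondrial DNA is a small circle whose strands are both transcribed into long precursors. The tRNAs that lie between the other genes are cut out of the precursors, and this frees the mRNAs and rRNAs. The proteins made from it are core subunits of respiratory complexes I, III and IV and of ATP synthase (complex V), and all the others come from nuclear genes. MT-ND6 is the only mRNA of the light-strand precursor, while the other 12 mRNAs and both rRNAs come from the heavy-strand precursor.

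In the annotation used here (GENCODE release 29, GRCh38), 28 of the 37 genes lie on the plus strand of chromosome M and 9 on the minus strand, namely MT-ND6 and 8 tRNAs. The sequences that follow were read from the GENCODE transcripts. They show bases shared between genes, a near-identical nuclear copy and the base composition of genes on opposite strands. How far shared bases or strand affect the counts was not tested. The reading frame of MT-ATP8, a small membrane subunit of ATP synthase, covers 207 bases at chrM:8366-8572, and its last 46 bases, in capitals, are also the first 46 bases of MT-ATP6, so a read there belongs to both genes.
MT-ATP8: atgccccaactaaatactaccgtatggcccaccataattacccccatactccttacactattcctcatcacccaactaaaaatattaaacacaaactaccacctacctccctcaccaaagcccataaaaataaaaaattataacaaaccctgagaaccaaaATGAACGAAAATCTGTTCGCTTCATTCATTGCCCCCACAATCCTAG
MT-ND4L, a small subunit of complex I, shares its last 7 bases, in capitals, with the start of MT-ND4, and its last 60 bases lie at chrM:10707-10766.
MT-ND4L: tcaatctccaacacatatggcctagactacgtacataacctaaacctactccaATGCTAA
MT-ATP6, the proton channel subunit of ATP synthase, has a nuclear copy, MTATP6P1 on chromosome 1, which matches it at 98.5% of 681 bases with 10 mismatches. Their first 90 bases, at chrM:8527-8616 and chr1:633696-633785, differ at 1 base, shown in capitals.
MT-ATP6 window: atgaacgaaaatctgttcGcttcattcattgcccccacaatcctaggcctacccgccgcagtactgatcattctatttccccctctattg
MTATP6P1 window: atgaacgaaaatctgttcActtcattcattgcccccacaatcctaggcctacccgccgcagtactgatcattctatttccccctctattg
MT-ND6, a membrane subunit of complex I, is rich in G. Its first 60 bases (minus strand, chrM:14614-14673) hold 21 G, in capitals, and those of MT-CO1, the catalytic subunit of cytochrome c oxidase (plus strand, chrM:5904-5963), hold 8.
MT-ND6: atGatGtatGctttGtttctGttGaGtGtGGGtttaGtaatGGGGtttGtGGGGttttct
MT-CO1: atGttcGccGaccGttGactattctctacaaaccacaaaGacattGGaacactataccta
Over its whole transcript MT-ND6 is 35.6% G and 7.05% C, while the 12 heavy-strand mRNAs range from 6.28% to 16.2% G and from 29.5% to 36.0% C. The labels do not say whether the libraries kept the strand. Without it, reads of MT-ND6 and of heavy-strand RNA across the same stretch could not be told apart.

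The libraries held 15810287 to 45209466 counts, and 22560 genes passed the filter on low counts. FASN stood at 219.5, 165.8, 301.1 and 478.7 CPM (counts scaled to a common library size with TMM factors) in replicates 1 to 4 of the libraries labelled as FASN knockdown after CSM, against 455.7, 479.4, 422.8 and 366.4 CPM in the controls after CSM. Replicate 4 therefore had FASN at the level of the controls, against its label, and several of the values that use it are also given without it. After CSM FASN itself was not significantly lower in the knockdown (log2 fold change -0.57, SE 0.28, edgeR adjusted p = 0.288), and the groups overlapped. In regular medium FASN was 117 CPM ± 16.1 in the knockdown and 451.5 CPM ± 104 in the control (SD, n = 3 each). That difference was significant (log2 fold change -1.94, SE 0.33, edgeR adjusted p = 0.0245). Every knockdown library after CSM had more FASN than those of regular medium (log2 fold change 1.31, SE 0.31, edgeR adjusted p = 0.568). Vimentin (VIM, 1188.7 to 2771.7 CPM) and the keratins KRT8 and KRT18 were present in every library. KRT20 and UPK3A, which mark differentiated urothelium, were at 0 in all libraries. Other urothelial markers were found in every library, as UPK1B at 0.6571 to 6.131 CPM and KRT7 at 0.4065 to 4.12 CPM. KRT5, TP63, PPARG and GATA3 also had counts in every library, while UPK2, KRT19 and EPCAM had none in some. Mouse transcripts are not in the tables, so a share of the counts may be mouse RNA assigned to human transcripts. In such bulk tissue, fewer cells of a type and less RNA per cell cannot be told apart.

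The mitochondrial share of the counts differed widely among libraries of the same group. It was 1.76%, 0.925%, 2.74% and 2.28% in replicates 1 to 4 labelled as FASN knockdown after CSM and 0.952%, 0.302% and 2.99% in FASN knockdown from regular medium. In the control libraries it was 1.35%, 1.17%, 0.328% and 0.722% after CSM, and 1.44%, 0.543% and 0.795% in regular medium. The knockdown libraries of regular medium alone thus spanned a 9.90-fold range, as wide as that of all 14 libraries, and every group overlapped with every other. The group means were 1.93% ± 0.778 for FASN knockdown after CSM (SD, n = 4), 1.42% ± 1.40 for FASN knockdown (SD, n = 3), 0.893% ± 0.460 for control after CSM (SD, n = 4) and 0.926% ± 0.463 for control (SD, n = 3). Without replicate 4, the mean of FASN knockdown after CSM was 1.81%.

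**Figure D1:**
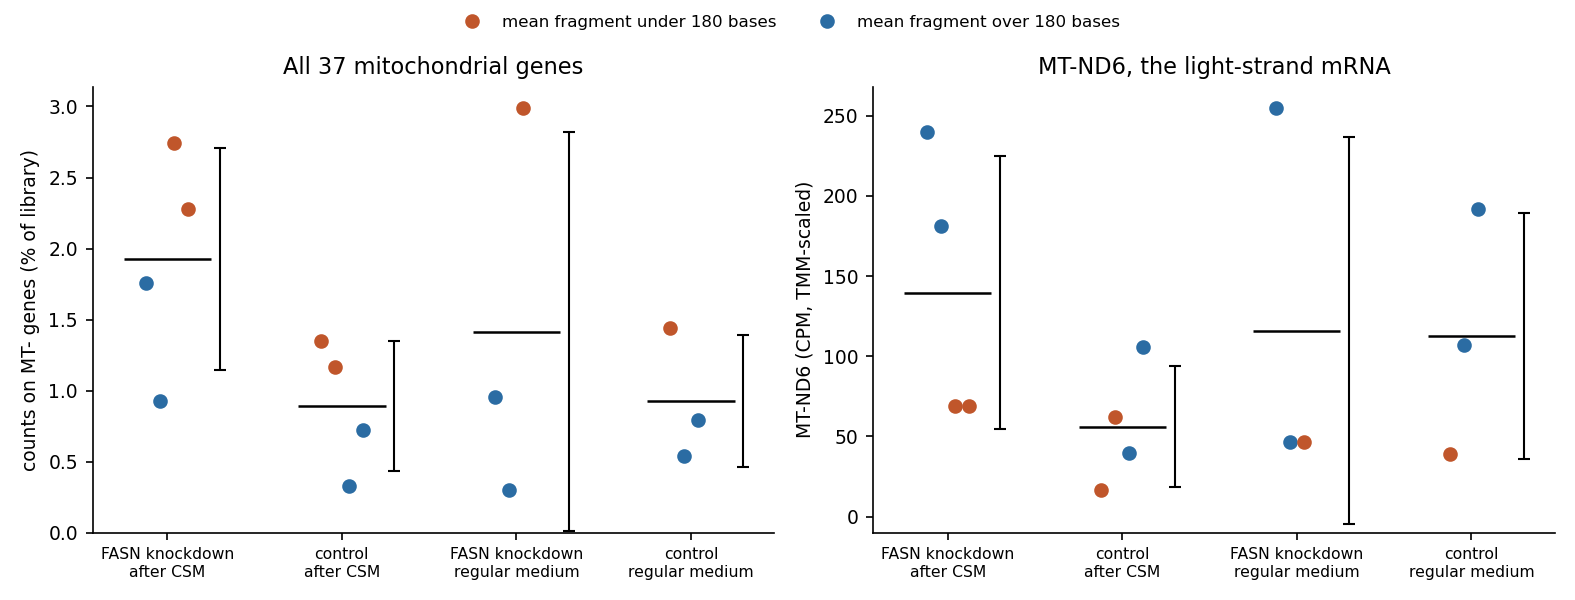
The left panel plots the counts on MT- genes as a percent of each library and the right panel the level of MT-ND6 in CPM, with 1 point per library, coloured by mean fragment length, a horizontal line at each group mean and a bar of 1 SD beside it (n = 4 after CSM, n = 3 in regular medium). The share was as high as 2.99% and as low as 0.302% within the FASN knockdown libraries of regular medium, and MT-ND6 was between 16.91 and 255.0 CPM over the 14 libraries.

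Nearly all mitochondrial counts came from mRNAs. The 2 ribosomal RNAs, which together form the core of the mitochondrial ribosome, took 27 to 548 counts per library, or 0.00554% to 0.128% of the mitochondrial counts. MT-RNR2 (16S) had 1006 reads over all libraries and MT-RNR1 (12S) had 409, of which 217 were in replicate 3 of FASN knockdown from regular medium. The 22 tRNA genes, 59 to 75 bases long, had 243 reads over all libraries, and 6 to 37 in any one library. Of these 22 genes 16 had a read in some library, the highest count of any was 14, and 6 had none (MT-TI, MT-TW, MT-TG, MT-TR, MT-TL2 and MT-TT). The transfer RNAs are shorter than the mean fragment of every library, 161.5 to 204.0 bases, and the labels do not say whether ribosomal RNA was removed. The 13 mRNAs and both rRNAs passed the filter on low counts and were tested, and no tRNA did.

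Per length, in TPM, MT-ATP8 had the highest median level over the 14 libraries at 2253.9 TPM. MT-CO1 followed at 1754.4, MT-ATP6 at 1451.5, MT-CO3 at 1078.2 and MT-CO2 at 1006.5 TPM, so the mRNAs of complexes IV and V took the first 5 places. The mRNAs of complexes I and III came next, with MT-ND2 at 631.7, MT-CYB (cytochrome b) at 552.0, MT-ND5 at 518.8, MT-ND4 at 509.2, MT-ND1 at 469.0 and MT-ND4L at 355.0 TPM. MT-ND6 at 215.9 and MT-ND3 at 175.2 TPM were the lowest mRNAs, and MT-RNR2 and MT-RNR1 were at 0.793 and 0.33 TPM. This order rests on Salmon's effective lengths, which weigh most on short genes. By median CPM over full length MT-ATP8 came after MT-CO1, MT-ATP6 and MT-CO3, and the order of the other 12 mRNAs was the same. The range of each gene across libraries was wider than the gap between neighbours in this order, since MT-ND2 alone ran from 59.14 to 1963.9 TPM. On the CPM scale the highest library was 3.49 times the lowest for MT-ND3, 4.18 times for MT-ATP8, 7.30 times for MT-CO1, 15.1 times for MT-ND6 and 37.3 times for MT-ND4L.

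The make-up of the mRNA pool separated with the length of the sequenced fragments, and did so in every group. Mean fragment length, taken from Salmon's effective lengths, was under 180 bases in 6 libraries (161.5 to 176.6) and over it in 8 (182.6 to 204.0), a boundary set after the values had been seen. The 6 libraries with short fragments were 2 of FASN knockdown after CSM, 1 of FASN knockdown, 2 of control after CSM and 1 of control, and each group had 2 with long fragments. MT-ND6 made up 0.258% to 1.09% of the TPM of the 13 mRNAs in the short-fragment libraries and 1.64% to 4.49% in the long-fragment libraries, with no overlap. MT-ND4L took 4.22% to 6.78% in the short-fragment libraries against 0.956% to 2.65% in the long-fragment libraries. These 2 subunits of complex I therefore went in opposite directions, and neither set of libraries overlapped with the other.

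The same held for 3 further mRNAs. MT-ATP8 took 14.4% to 18.3% of the mRNA TPM with short fragments and 21.1% to 30.0% with long ones, MT-ND3 (complex I) took 0.703% to 1.32% and 1.63% to 3.87%, and MT-CYB took 5.32% to 6.04% and 3.89% to 4.78%. The shares of the other 8 overlapped between the classes. TPM of a short gene depends on the effective length, which itself depends on fragment length, so the shares were also taken from the counts. There MT-ND6, MT-ATP8, MT-ND3 and MT-ND4L stayed apart in the same directions, with MT-ND6 at 0.126% to 0.535% of the mRNA counts against 0.947% to 2.39%, and MT-CYB overlapped.

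**Figure D2:**
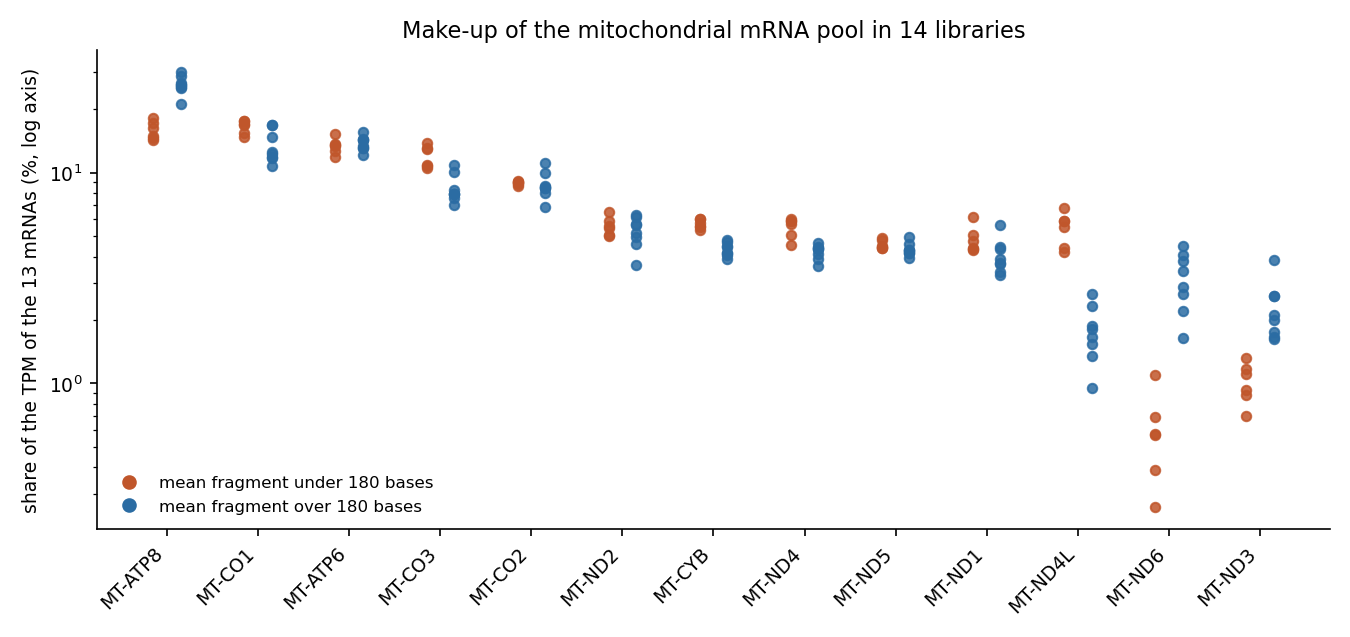
The vertical log axis gives the share of each of the 13 mRNAs, in percent of their summed TPM, with 1 point per library, short-fragment libraries drawn left of long-fragment libraries. MT-ND4L, MT-ND6, MT-ND3, MT-ATP8 and MT-CYB fall into non-overlapping ranges, and the other 8 mRNAs overlap.

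Ratios of neighbouring genes do not depend on how the libraries were scaled to each other, though on TPM they still depend on effective length. The TPM ratio of MT-ND4L to MT-ND4, which lie on the same bicistronic mRNA, was 0.873 to 1.15 in the short-fragment libraries and 0.265 to 0.683 in the long-fragment libraries. For MT-ATP8 over MT-ATP6, also bicistronic, it was 1.12 to 1.34 in the short-fragment libraries and 1.58 to 2.29 in the long-fragment libraries. MT-ND6 over MT-ND5, its neighbour on the other strand, gave 0.0589 to 0.243 and 0.395 to 1.08. None of these 3 ratios, and none of the 13 TPM shares, separated the knockdown from its control or CSM from regular medium in any of the 4 comparisons of groups. Of 5 ratios computed, MT-CO1 over MT-CYB did so once, at 2.67 to 2.84 in FASN knockdown after CSM against 2.94 to 4.33 in FASN knockdown from regular medium.

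**Figure D3:**
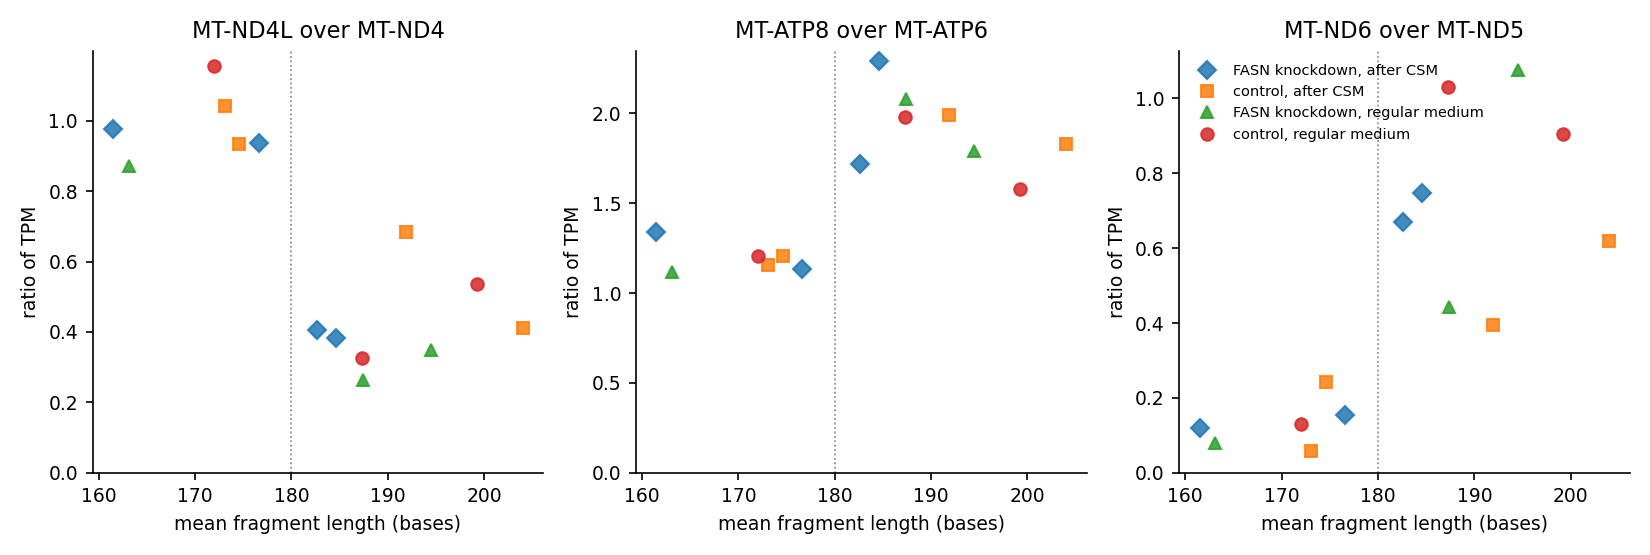
Each panel plots a ratio of TPM between 2 mitochondrial mRNAs against the mean fragment length of the library in bases, with 1 point per library, symbols for the 4 groups and a dotted line at 180 bases. Libraries left of the line have MT-ND4L over MT-ND4 of 0.873 or more and MT-ND6 over MT-ND5 of 0.243 or less, whatever their group.

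Levels differed between the fragment classes as well. With class and group together in the edgeR fit, 10 of the 15 tested members were higher in short-fragment libraries and MT-ND6 was lower (adjusted p below 0.05 over all genes). Of all 22560 genes 7.43% were called higher and 9.5% lower, 16.9% in all. In MT-ND4L, MT-CO3 and MT-CO1, 3 of the 15, the CPM ranges of the classes did not overlap, and all were higher with short fragments. The classes did not overlap in 4.01% of all genes, higher with short fragments in 1.67% and lower in 2.34%. MT-ND4L differed most, at 94.69 to 281.0 CPM in the short-fragment libraries against 7.54 to 59.31 CPM in the long-fragment libraries (log2 fold change 2.65, SE 0.272, edgeR adjusted p = 0.000382). MT-CO1 was 3905.1 to 7682.5 CPM in short-fragment libraries and 1052.6 to 3847.6 CPM in long-fragment libraries (log2 fold change 1.28, SE 0.22, edgeR adjusted p = 0.00252). MT-ND6 ran the other way, at 16.91 to 68.88 CPM in short-fragment and 39.82 to 255.0 CPM in long-fragment libraries (log2 fold change -1.47, SE 0.393, edgeR adjusted p = 0.0212). The 4 members not called were MT-ATP8, MT-ND3, MT-RNR1 and MT-RNR2. With fragment length as a number in place of the class, 9 of the 15 were called, and MT-ND6 again had the sign opposite to that of the other 8. Of all genes 10.4% were called there, 6.11% higher and 4.3% lower in libraries with longer fragments.

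Other shares moved with these. 7SL (RN7SL1 and RN7SL2), the noncoding RNA scaffold of the signal recognition particle, took 2.64% to 25.6% of the counts. The 4 libraries with the least 7SL (2.64% to 3.89%) had mitochondrial shares of 1.76% to 2.99%, against 0.302% to 1.44% in the other 10. All 4 were labelled as FASN knockdown, namely replicates 1, 3 and 4 after CSM and replicate 3 of regular medium. In this split, low 7SL and the knockdown label therefore cannot be told apart. The 2 with the most 7SL (16.3% and 25.6%) had 0.328% and 0.302%. Both are shares of the same total, but with 7SL taken out of the total the mitochondrial share still ran from 0.392% to 3.12%. The relation of fragment length to the mitochondrial levels was tested as given above, and that of 7SL was not. Whether either is a cause of these levels was not tested.

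After CSM, FASN knockdown against control was the comparison with the most genes called, and no mitochondrial gene was called in it. The log2 fold changes of the 13 mRNAs were all above 0 (0.48 to 1.31), and their median was 0.96 where that of all tested genes was 0.008. By edgeR's quasi-likelihood test at an adjusted p below 0.05, 0 of 15 members and 1.17% of all genes were called, 0.43% higher and 0.74% lower. At an unadjusted p below 0.05 there were 2 members and 4167 genes. The libraries are not said to come from separate animals, so these p-values measure the spread between libraries.

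MT-ATP8 came nearest to a call. It stood at 426.1, 301.7, 427.3 and 329.3 CPM in the libraries labelled as FASN knockdown after CSM and at 187.5, 185.9, 121.9 and 204.1 CPM in the controls after CSM. The groups did not overlap, which held for this member alone of the 15. Of all genes 16.2% did not overlap, 8.86% higher and 7.34% lower in the knockdown. Its log2 fold change was 1.09 (SE 0.33, 95% interval 0.38 to 1.79, edgeR adjusted p = 0.108). Without replicate 4 of the knockdown it was 1.15 (edgeR adjusted p = 0.142). DESeq2 called it (adjusted p = 0.0251), as did the fit of these 2 groups alone (edgeR adjusted p = 0.0345), and over all alternatives its adjusted p ran from 0.00453 to 0.442. MT-ATP6 had the next smallest p, at 1.05 (SE 0.46, edgeR adjusted p = 0.240).

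For the other members the groups overlapped. MT-CO1 was at 3847.6, 2491.9, 6988.0 and 5716.4 CPM in the libraries labelled as FASN knockdown after CSM, against 4264.1, 3905.1, 1052.6 and 2051.5 CPM in the controls after CSM, where replicates 1 and 2 exceeded the lower knockdown libraries. The MT-ND5 mRNA of complex I was at 1697.3, 1153.8, 2599.5 and 2076.4 CPM in the knockdown and 1332.6, 1191.6, 487.8 and 844.9 CPM in the controls, where knockdown replicate 2 alone lay within the range of the controls. MT-ND6 had the largest fold change of the members, at 239.6, 181.4, 68.8 and 68.88 CPM in the knockdown and 16.91, 62.25, 39.82 and 105.6 CPM in the controls (log2 fold change 1.31, SE 0.67, edgeR adjusted p = 0.302). Its highest libraries in the knockdown were replicates 1 and 2, both with long fragments, and control replicate 4, also with long fragments, lay above the other 2 knockdown libraries. MT-RNR2 was at 1.803, 3.932, 1.066 and 1.28 CPM in the knockdown and 1.417, 0.8354, 1.134 and 0.5294 CPM in the controls (log2 fold change 1.04, SE 0.52, edgeR adjusted p = 0.297). Without knockdown replicate 4 the log2 fold changes were 1.56 for MT-ND6, 0.97 for MT-ATP6 and 1.21 for MT-RNR2, none of them called. MT-RNR1 had the only negative value, -0.41 (SE 1.03, edgeR adjusted p = 0.856), on 8 to 27 counts in the knockdown libraries and 4 to 46 in the controls, and -0.17 without replicate 4.

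For the mRNAs the overlap of the groups lay between fragment classes and not within them. In the long-fragment libraries MT-ATP6 was at 1881.3 and 1011.8 CPM in knockdown replicates 1 and 2, against 461.6 and 830.0 CPM in control replicates 3 and 4. In the short-fragment libraries it was at 2336.8 and 2184.8 CPM in knockdown replicates 3 and 4, against 1196.6 and 1104.1 CPM in control replicates 1 and 2. Both knockdown libraries thus stood above both controls in either class, and this held for 13 of the 13 mRNAs and for neither rRNA. Of all genes, 14% were higher in the knockdown in this sense and 14.4% were lower. The margin was narrow in places, as for MT-ND3 with short fragments, at 58.39 and 44.47 CPM in the knockdown and 43.98 and 34.22 CPM in the controls. The class boundary was set with these values known, the 13 mRNAs come from shared precursors, and FASN knockdown replicate 4 is among the short-fragment libraries, which leaves knockdown replicate 3 alone against the 2 controls there when it is set aside. In regular medium the long class held 2 libraries of each group and the short class 1. There 0 of the 13 mRNAs and 1 rRNA met the same condition, beside 8.82% of all genes higher and 12.7% lower. For CSM against regular medium in knockdown cells, 2 of the 13 mRNAs were higher after CSM within both classes, beside 7.93% of all genes.

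The positive median of the mRNAs was also found within fragment classes. It was 1.03 in the 2 knockdown and 2 control libraries with long fragments and 0.82 in the 2 and 2 with short fragments, with all 13 mRNAs positive in each and none called. It was 0.75 without replicate 4 of the knockdown. With the 7SL share as a covariate it was 0.34 and 11 of 13 were positive, and with mean fragment length as a covariate it was 0.50 and all 13 were. The 7SL share itself was 2.73%, 11.3%, 2.64% and 2.67% in the knockdown libraries and 4.20%, 4.97%, 16.3% and 6.33% in the controls. The summed level of 10 fibroblast and matrix markers was 8.77 to 15.8 CPM in the knockdown and 14.7 to 81.9 CPM in the controls, with THY1 and POSTN called lower, while 3 of the 7 tested markers were positive. COL1A1 averaged 3.045 CPM ± 0.995 in the knockdown and 1.694 CPM ± 0.761 in the controls (SD, n = 4 each), and the median library had 0 CPM for LUM and FAP. Mouse transcripts were not counted, so which cells gave the reads of these markers is not known. The part of 7SL or of the marker levels in the mitochondrial values was not tested.

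**Figure D4:**
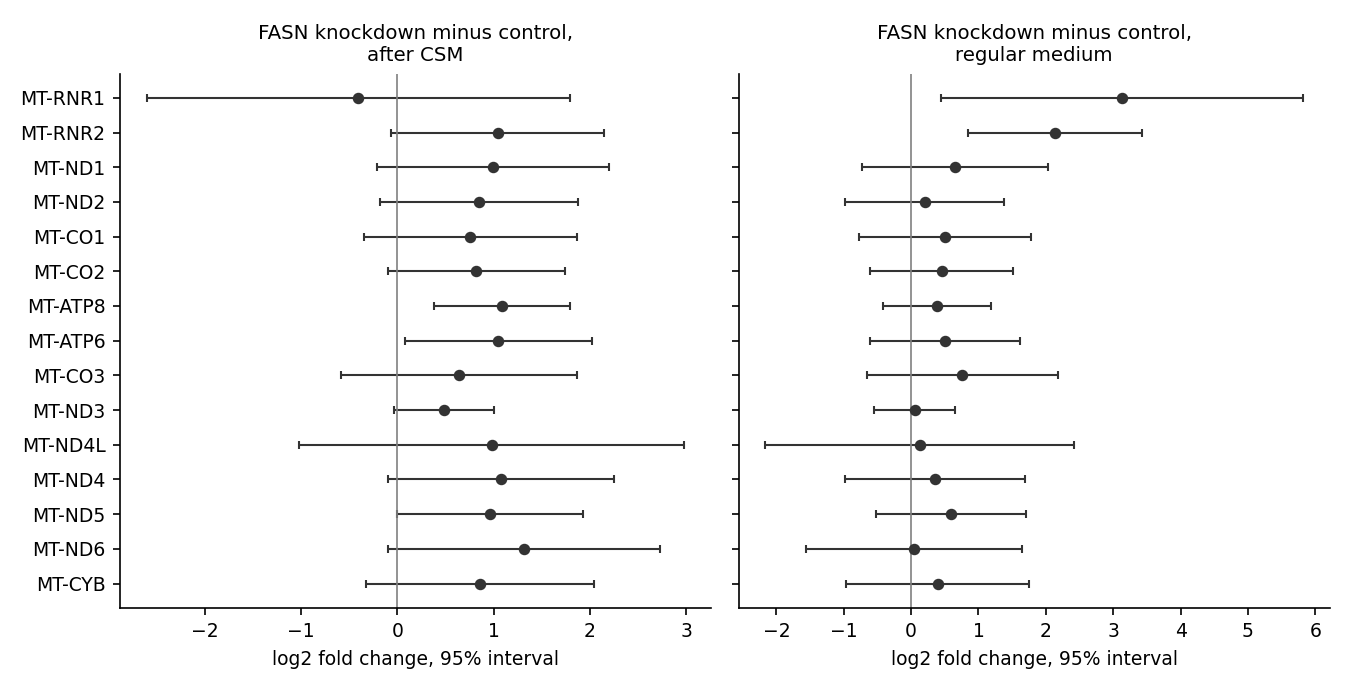
Points give the log2 fold change of FASN knockdown over control for each of the 15 tested members, after CSM on the left and in regular medium on the right, with 95% intervals from the edgeR fit. After CSM the interval of MT-ATP8 runs from 0.38 to 1.79, and no member passed the adjusted threshold in either medium.

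In regular medium no mitochondrial mRNA passed the test for the knockdown. The 13 log2 fold changes against control ran from 0.04 to 0.76 with a median of 0.39, and all were positive, but on the log2(TPM + 1) scale 2 of 13 were, at a median of -0.144 where that of all genes was -0.141. On log2(TPM + 0.1) the median was -0.15 and that of all genes -0.302. Of the 15 members 0 were called, and of all genes 0.204% (0.0266% higher and 0.177% lower), with 2 members and 2049 genes at an unadjusted p below 0.05. MT-CO1 was at 3401.0, 1418.8 and 7682.5 CPM in the knockdown, on both sides of the control values of 4632.9, 1923.5 and 2293.1 CPM. MT-ND6 was at 255.0, 46.51 and 46.42 CPM in the knockdown and 38.99, 107.1 and 191.7 CPM in the control (log2 fold change 0.04, SE 0.76, edgeR adjusted p = 0.994). The median was -0.33 without knockdown replicate 3 and was 0.93 without control replicate 1. Within classes it was 0.02 with long fragments, and 0.73 between the single short-fragment library of each group.

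Of the 15 members the rRNAs had the largest log2 fold changes in regular medium, on 1 to 331 counts per library. Whether ribosomal RNA was removed from the libraries is not known, so these values need not follow the rRNA levels of the tissue. MT-RNR2 was at 2.102, 4.405 and 9.635 CPM (60, 52 and 331 counts) in the knockdown and 1.379, 0.8451 and 1.447 CPM (61, 30 and 55 counts) in the control. The groups did not overlap for this member alone of the 15, and for 11.8% of all genes, 4.8% higher and 7.04% lower. The test gave no call (log2 fold change 2.14, SE 0.61, edgeR adjusted p = 0.250, DESeq2 adjusted p = 0.0254). Without knockdown replicate 3 the value was 1.36 (edgeR adjusted p = 0.406), and over all alternatives the adjusted p ran from 0.0254 to 0.994. MT-RNR1 had 1, 9 and 217 counts in the knockdown and 19, 5 and 9 in the control, or 0.0363, 0.763 and 6.32 CPM in the knockdown and 0.430, 0.149 and 0.237 CPM in the control. Knockdown replicates 2 and 3 stood above the control libraries and replicate 1 below them. The log2 fold change of MT-RNR1 was 3.13 (SE 1.26, edgeR adjusted p = 0.464), and 0.38 without knockdown replicate 3.

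CSM against regular medium in control cells left 0 of 15 members called, and 0% of all genes (DESeq2 called 6 genes and no member). At an unadjusted p below 0.05 there were 0 members and 316 genes. The median of the 13 mRNAs was -0.07, with 4 positive, and it was 0.44 without control replicate 1. MT-ND6 had the most negative value, -1.004 (SE 0.70, edgeR adjusted p = 0.9997). Its 2 highest libraries of the 7, 191.7 and 107.1 CPM, were both of regular medium, and the groups overlapped. MT-ND3 had the highest value of the mRNAs, 0.31 (SE 0.26, edgeR adjusted p = 0.9997). The rRNAs gave 1.14 (SE 1.16) for MT-RNR1 and -0.32 (SE 0.56) for MT-RNR2, with the same adjusted p. The groups overlapped for all 15 members, and did not for 4.07% of all genes, 1.91% higher and 2.16% lower after CSM.

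In FASN knockdown cells CSM against regular medium again gave 0 of 15 members and 0% of all genes called (DESeq2 called 52 genes and no member). At an unadjusted p below 0.05 there were 3 members and 1504 genes. All 13 mRNAs were positive at a median of 0.39. With the 7SL share as a covariate the median was -0.35 and 3 were positive, and it was 0.45 without replicate 4 of the knockdown after CSM, 0.02 without the libraries with over 15% 7SL and -0.01 without knockdown replicate 2 of regular medium. MT-ND3 had the smallest p among the mRNAs, at 73.41, 69.14, 58.39 and 44.47 CPM after CSM and 45.83, 21.01 and 43.08 CPM in regular medium (log2 fold change 0.74, SE 0.27, edgeR adjusted p = 0.684). Without replicate 4 after CSM the value was 0.875 and not called. MT-ND4L had the largest positive value, 0.84 (SE 1.03, edgeR adjusted p = 0.908), and MT-ND6 had 0.27 (SE 0.71, edgeR adjusted p = 0.975). MT-RNR2 had -1.42 (SE 0.55, edgeR adjusted p = 0.713) and MT-RNR1 -2.40 (SE 1.10, edgeR adjusted p = 0.744), both with regular-medium replicate 3 as the highest library. The groups overlapped for all 15 members, and did not for 5.91% of all genes, 4.42% higher and 1.49% lower after CSM. As a share of the mRNA counts, MT-CO1 was 26.0% to 30.0% after CSM against 31.4% to 35.1% in regular medium, without overlap, and MT-ND4 was 8.87% to 10.3% against 6.62% to 8.36%. These 2 shares were picked out after their values had been seen, and on the TPM scale neither separated the groups.

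The interaction asks whether the knockdown effect after CSM differs from that in regular medium. It gave 0 of 15 members and 0% of all genes called, with 1 member and 1178 genes at an unadjusted p below 0.05 (DESeq2 called 7 genes and no member). The mRNA median was 0.46, with 12 of 13 positive, and it was -0.02 without control replicate 1. MT-RNR1 had the smallest p and the most negative value at -3.54 (SE 1.61, edgeR adjusted p = 0.942). MT-ND6 had the highest value at 1.27 (SE 1.00), MT-ATP8, next by p, had 0.70 (SE 0.50), and MT-RNR2 had -1.10 (SE 0.79), each with an edgeR adjusted p of 0.945. Without replicate 4 of the knockdown after CSM the mRNA median was again 0.46, and MT-ND6 had 1.52, MT-ATP8 0.76, MT-RNR1 -3.33 and MT-RNR2 -0.94, with none called. The 5 comparisons share their groups, so their values are not independent of each other.

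Nuclear genes encode the other subunits of the same complexes. After CSM, 71 of the 74 tested nuclear subunits of complexes I, III, IV and V were negative in FASN knockdown against control at a median of -0.63, while the 13 mitochondrial subunits were all positive. By complex, the mitochondrial and nuclear medians were 0.98 and -0.55 for complex I, 0.86 and -0.72 for complex III, 0.76 and -0.79 for complex IV, and 1.07 and -0.63 for complex V. On the TPM scale (pseudocount 1) the nuclear median was 0.01 and the mitochondrial one 1.60, where that of all genes was 0.39. The nuclear median was -0.89 within the long-fragment class, -0.41 within the short-fragment class, and -0.71 without replicate 4 of the knockdown. No test compared the 2 sets. In regular medium the nuclear median was -0.05, with 33 of 74 positive. It was -0.42 with 1 positive on log2(TPM + 1), 0.34 with 64 positive within the long-fragment class, and -1.04 with 2 positive between the single short-fragment library of each group. For CSM against regular medium in knockdown cells it was -0.25 with 14 of 74 positive, while on log2(TPM + 1) all 74 were positive, at 0.69, as were the 13 mitochondrial mRNAs, at 1.70. The nuclear median there was -0.69 with 5 positive in the long-fragment class. In the short-fragment class, with 1 library of regular medium, it was 0.67 with 68 positive. For CSM against regular medium in control cells, which shares the control libraries after CSM, the nuclear median was 0.33 with 70 of 74 positive and none called, beside the mitochondrial mRNA median of -0.07. It was 0.54 with 70 positive in the long-fragment class. In the short-fragment class, again with 1 library of regular medium, it was 0.05 with 43 positive.

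**Figure D5:**
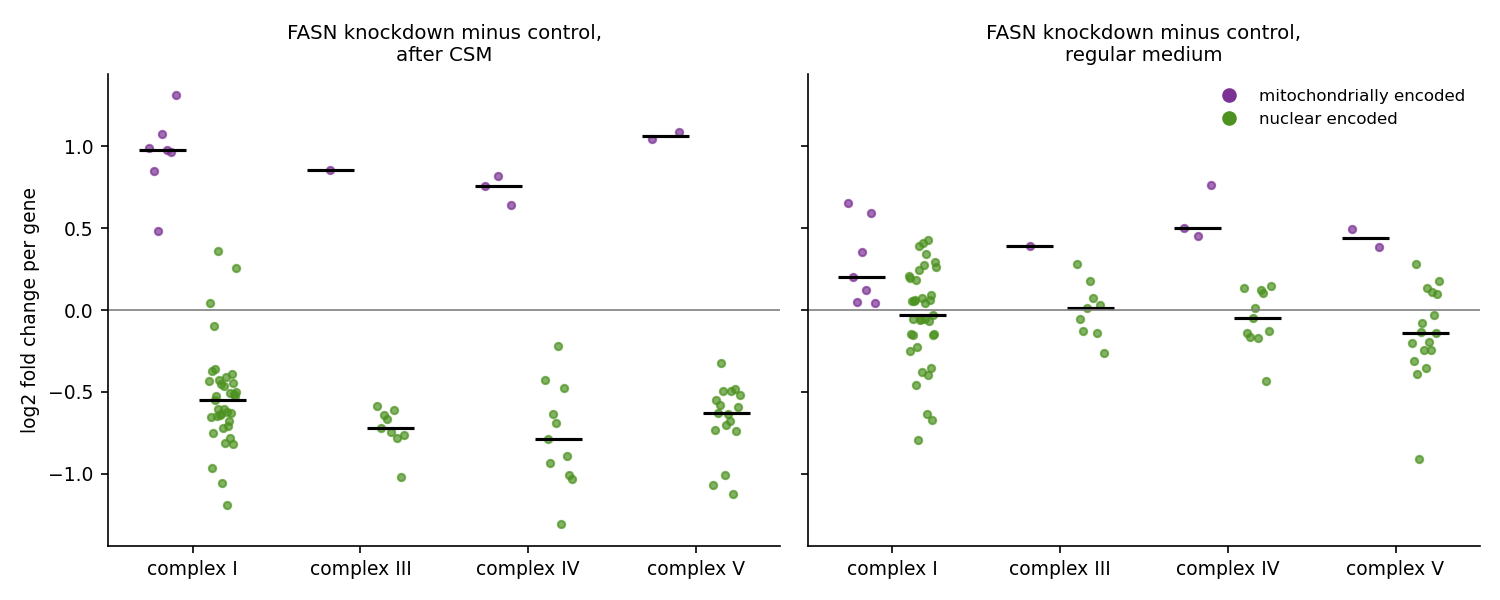
Each point is the log2 fold change of a gene in FASN knockdown over control, after CSM on the left and in regular medium on the right, for mitochondrial (left in each pair) and nuclear subunits of complexes I, III, IV and V, with a line at each median. After CSM the mitochondrial points lie between 0.48 and 1.31 and 71 of 74 nuclear points lie below 0.

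Of the nuclear subunits 1 was called in the knockdown after CSM, beside 1.17% of all genes. This was NDUFC1, an accessory subunit of complex I. It fell to 9.372, 8.72, 12.49 and 11.1 CPM in the libraries labelled as FASN knockdown after CSM, against 20.35, 25.03, 27.79 and 22.16 CPM in the controls after CSM (log2 fold change -1.19, SE 0.23, edgeR adjusted p = 0.0236). Leaving out a library raised its adjusted p to as much as 0.0825, and it remained called only without knockdown replicate 3 or control replicate 1. Its call was lost in 11 of 25 alternatives, leave-outs included. Over the alternatives the number of nuclear subunits called was 0 with the replicate block, on TPM or within the short class. It was 8 of 74 with DESeq2, 12 of 75 without the filter and 19 of 74 within the long class. Of all genes tested, DESeq2 called 1452 of 22560, the fit without the filter 1178 of 43484 and the long class 711 of 22560. COX6B1 (complex IV) at -0.69 (SE 0.17, edgeR adjusted p = 0.066), ATP5F1A (complex V) at -1.07 (SE 0.30, edgeR adjusted p = 0.0921), UQCRC1 (complex III) at -0.75 (SE 0.26, edgeR adjusted p = 0.150) and SDHC (complex II) at -0.97 (SE 0.33, edgeR adjusted p = 0.148) had the smallest p of their lists and were not called.

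In the knockdown after CSM, 0 of 10 genes of mitochondrial transcription, 0 of 12 of mitochondrial DNA replication, 0 of 19 of mitochondrial RNA processing and decay and 0 of 22 mitochondrial tRNA synthetases were called, at medians of -0.24, -0.17, -0.21 and -0.28. Of 9 regulators of mitochondrial biogenesis PPARGC1A, the coactivator PGC-1 alpha, was called. It had 0.1478, 0.1026, 0.1684 and 0 CPM in the libraries labelled as FASN knockdown after CSM and 46.43, 3.947, 2.212 and 8.422 CPM in the controls after CSM, where replicate 1 was far above the rest (log2 fold change -7.21, SE 1.16, edgeR adjusted p = 0.00751). The call was lost in 4 of 25 alternatives, on both TPM scales and within either fragment class, with an adjusted p of up to 0.2123 by limma. Over all genes 1.17% were called in this comparison, against 1 of these 72. In the other 4 comparisons none of these lists and none of the lists of nuclear subunits had a called member.

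Nuclear copies of mitochondrial genes took few of the counts. The 404 such genes together had 1.92% to 3.17% of the mitochondrial count, and 205 of them were at 0 in every library. MTATP6P1 had the most, 1208 to 22421 counts or 15.6% to 27.3% of MT-ATP6, so the counts of these 2 near-identical genes are uncertain as to their split. MTND2P28 (98.4% identical to MT-ND2) had 0.558% to 1.13% of its count, and MTCO2P2 (95.6% identical over the aligned bases) had 0.482% to 2.04% of that of MT-CO2. With the copies added to their genes, 0 of 15 members were called in any of the 5 comparisons.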

How the data were processed

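Total RNA from frozen xenograft tissue was sequenced in 14 libraries, grouped and numbered by their titles. Per the file headers, the authors deposited Salmon's expected counts (estimated reads, not whole numbers), its TPM values, and the length and effective length of 252048 transcripts in each library. The submitters' processing notes name FastQC, cutadapt, Salmon and GRCh38. The versions, the library type and the annotation release used by the authors were not given in the sources used here. Expected counts were summed per gene and rounded. The mitochondrial genes and the lists were chosen with earlier results of these data known.

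Each comparison used edgeR 4.0.16 (R 4.3.3, quasi-likelihood test) with TMM factors, filterByExpr (minimum count 10, minimum total 15), all 14 libraries in a single fit with a coefficient per group (10 residual degrees of freedom, biological coefficient of variation 0.444) and Benjamini-Hochberg adjustment over 22560 genes. A gene was called at an adjusted p below 0.05. On simulated data for FASN knockdown against control after CSM (21751 genes), 87% of genes changed 4-fold and 99% of those changed 16-fold were recovered. Only genes above a set mean count were changed. Smaller changes, such as those of the mitochondrial mRNAs, were not simulated, so their recovery is not known. DESeq2 1.42.0, limma 3.58.1 on log2(TPM + 1) and log2(TPM + 0.1), other factors and filters and each library left out in turn were the alternatives. Added after the data had been seen were fragment length (median of length minus effective length plus 1 over transcripts of at least 5000 bases), fragment class, the 7SL share, 2 libraries left out for over 15% 7SL, and nuclear copies.

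Named members were MT-CO1, MT-ND6, MT-RNR1 and MT-RNR2 throughout, the members with the highest and lowest mean level, and per comparison the 2 with the smallest p and the largest rise and fall. MT-ATP8, MT-ND3 and MT-ND4L are also described for their shares, chosen after their values had been seen. Of each nuclear list the called genes (up to 3, such as NDUFC1 and PPARGC1A) or the gene with the smallest p were named. Sums over the members were given no p. No 2 libraries were near identical (highest correlation of log2 CPM 0.973).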

Additional observations from a re-analysis of the deposited data

Results flagged for a closer look

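In the libraries labelled as FASN knockdown after CSM, 7SL took 11.3% of the counts of replicate 2, where the other 3 stood at 2.64% to 2.73%. The gap was larger than the 95% limit of Dixon's test for 4 samples. Of 42 groups of values examined this was the only one past the limit, and chance passes about 1 in 20. That library also had the lowest mitochondrial share of its group, 0.925%. What part the 7SL share has in it was not tested.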

How the results depend on the processing

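No mitochondrial gene was called in any of the 5 comparisons when a library was left out in turn (0 in each fit), and over the named genes 519 alternative values kept their direction and their side of the threshold, 20 changed sign, 15 lost a call and 8 gained one. For FASN knockdown against control after CSM (264 genes and 0 members called), DESeq2 called 1452 genes and 1 member, the fit without the filter 1178 and 6, and the fit of these groups alone 435 and 1. The other counts of genes were 987 with fragment class as a block, 711 within the long class, 57 within the short class, 42 on log2(TPM + 0.1), 59 on log2(TPM + 1), 133 without the libraries with over 15% 7SL, and 86 to 175 without 1 library. In regular medium (46 genes and 0 members) DESeq2 called 346 genes and 1 member, and the fit without the filter 389 and 2. There the other counts were 83 with the class block, 134 with the 7SL covariate, 25 from these groups alone, 27 within the long class, 22 on log2(TPM + 0.1), 17 on log2(TPM + 1), 18 without the libraries with over 15% 7SL, and 11 to 35 without 1 library. For CSM in control cells (0 genes) the counts were 6 with DESeq2, 62 without the filter, and 1 each with the 7SL covariate, within the long class and within the short class. For CSM in knockdown cells (0 genes) they were 52 with DESeq2, 175 without the filter, 3 with the 7SL covariate, 8 within the short class and 1 on log2(TPM + 0.1). The interaction (0 genes) had 7 with DESeq2 and 121 without the filter. On TPM the median of all genes moved, to 0.394 for the knockdown after CSM, -0.141 for the knockdown in regular medium, 0.585 for CSM in knockdown cells and 0.571 for the interaction (pseudocount 1). The mRNA median for CSM in knockdown cells was 1.70 on log2(TPM + 1) and 1.708 on log2(TPM + 0.1), and that of the interaction was 1.865 and 1.874. As a share of TPM, the mean mitochondrial level after CSM was 2.815% ± 1.25 in FASN knockdown and 0.985% ± 0.558 in control (SD, n = 4 each). In regular medium it was 1.593% ± 1.92 in FASN knockdown and 0.929% ± 0.394 in control (SD, n = 3 each). Knockdown and control overlapped in both media, after CSM with a lowest knockdown library of 1.01% and a highest control of 1.52%. Without 1 library the mRNA medians ran from 0.716 to 1.153 for the knockdown after CSM, -0.33 to 0.926 in regular medium, -0.313 to 0.435 for CSM in control cells, -0.006 to 1.296 for CSM in knockdown cells and -0.019 to 1.226 for the interaction.

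Some members that were not called changed sign, and the cause was not tested. In regular medium MT-ND6 was -0.525 on log2(TPM + 0.1), -0.518 on log2(TPM + 1), -0.084 with the 7SL covariate and -1.284 to 0.652 without 1 library. After CSM MT-RNR1 was 0.545 on log2(TPM + 0.1), 0.143 on log2(TPM + 1), 0.519 within the long class and -0.825 to 0.358 without 1 library. For CSM in control cells MT-ND6 was 0.022 within the short class. For CSM in knockdown cells MT-ND4L was -0.557 with the 7SL covariate, MT-ND6 was -0.112 without the libraries with over 15% 7SL and -0.145 to 1.592 without 1 library, and MT-RNR1 was 0.997 within the long class and -2.975 to 0.368 without 1 library. Over all libraries the rRNAs and tRNAs had the fewest counts of the members, and the rRNAs had at most 548 in a library.

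Replicate numbers are not said to pair the samples. Same-numbered libraries deviated together by -0.207 to 0.328 (correlations of deviations from the group means). With so few libraries per group, these values cannot decide whether the numbers mark pairs. With the replicate block, 59 genes were called for the knockdown after CSM and 17 in regular medium, with no member in either. Under it MT-ND6 in regular medium was -0.272 and MT-RNR1 after CSM was 0.179.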
